A study of Mus musculus with 6 samples.

Results

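A group of 9 genes encoding enzymes or partners of ADP-ribosylation was followed in infarcted mouse hearts, chosen by name among the 26012 genes of the deposited expression table. Of these 9 genes, 7 are known to be induced by interferon. They are the macrodomain genes Parp9 and Parp14, Dtx3l, the ubiquitin ligase partner of Parp9, the mono-ADP-ribosyltransferases Parp10 and Parp11, and the zinc finger genes Parp12 and Zc3hav1. The other 2 genes, Parp1 and Parp2, encode the DNA repair enzymes of the family and served as a comparison. The genes were taken by name, by no threshold on the measured values, but with earlier results of these data known. No heart received interferon, so the description of the 7 genes as interferon-induced is background that these hearts did not test.

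The study asked how gene expression in the infarcted heart differed after injection of miR-19a/19b. All hearts came from male C57BL/6 mice, 8 weeks of age, in which the left anterior descending coronary artery was ligated to produce a myocardial infarction (MI). At surgery, 3 hearts received control mimic and 3 hearts received miR-19a/19b mimic, a synthetic RNA that acts as the mature miRNA, at 10 μg per heart by intra-cardiac injection. Ventricular tissue was taken on day 4 after MI and polyadenylated RNA was sequenced, with 1 library per heart. No group without infarction was compared here, so every value below is from an injured heart. The tissue was whole ventricle, in which fewer cells of a type and less RNA per cell cannot be told apart.

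Each library had 19398196 to 23645308 reads counted on genes. Values are given as normalized counts, which are reads divided by the library's size factor (between 0.9048 and 1.157). The cardiomyocyte genes that define the tissue were abundant in every heart, and the 8 cardiomyocyte markers together reached at least 296170.2 normalized counts. A pair of miR-19a/19b mimic hearts stood apart. Replicate 3 differed from the other miR-19a/19b mimic hearts by a chi-square per degree of freedom of 121 and 135, against 11.2 between those hearts and 10.3 to 26.6 among the control mimic hearts, and it had the lowest cardiomyocyte sum (296170.2, against 482786 to 868929 in the other 5 hearts). Replicate 1 held 2282 normalized counts of 6 skeletal muscle markers, against 28.3 to 69.2 in the others. Counts that moved without either heart are given beside the counts with all hearts.

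ADP-ribosylation is the transfer of ADP-ribose from NAD onto proteins or nucleic acids by enzymes of the PARP family. Parp1 and Parp2 sense DNA breaks and build long chains of poly(ADP-ribose), and overactive Parp1 is known to drain NAD in ischemic heart muscle. Most interferon-induced members add single ADP-ribose units or, like Zc3hav1, have no catalytic activity, and they are known for restricting viruses and for acting in cytokine signaling.

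The injected agents were mimics of a pair of miRNAs from the miR-17-92 cluster, whose mature sequences are shown because they define the treatment. The seed (bases 2 to 8), the part that pairs with target mRNAs, is in capitals.
miR-19a-3p: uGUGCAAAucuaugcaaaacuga
miR-19b-3p: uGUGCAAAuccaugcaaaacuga
The sequences are from RefSeq (GRCm38.p6), on the + strand of chromosome 14 at 115044048 to 115044070 for miR-19a-3p and at 115044358 to 115044380 for miR-19b-3p. They share the seed and differ at 1 base, U11C (miR-19a base first, counted from the 5′ end, then the miR-19b base).

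The longest annotated 3′ UTR of each gene was searched for TTTGCACA, TTTGCAC and TTGCACA, the DNA letters that pair with this seed. A match was found in 0 of the 9 genes, while 18.4% of the 15820 tested genes with a 3′ UTR held at least 1. The searched 3′ UTRs were 2788 bases long in Dtx3l, 2526 in Parp11, 1902 in Zc3hav1, 1772 in Parp14, 905 in Parp12, 723 in Parp1, 376 in Parp9, 299 in Parp10 and 107 in Parp2, with a median of 1104 over all genes searched. The search covered these letters in these windows only. Across all genes searched, the median log2 fold change was -0.03 with a match and 0.01 without.

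All 7 interferon-induced genes were lower in miR-19a/19b mimic hearts than in control mimic hearts, at 66.5% to 87.9% of the control mean, and for each of them the highest miR-19a/19b mimic heart was below the lowest control heart. The largest differences were in Parp14 (66.5% of the control mean), Dtx3l (70.3%), Parp9 (74.7%) and Parp10 (74.7%). Parp1 (98.9%) and Parp2 (102%) were near their control means, with overlapping groups. All 9 genes passed the filter on low values (a mean of at least 1 normalized count), each with at least 308 reads in every heart. Fold changes were tested with limma on log2(normalized count + 1) over 21126 genes, with Benjamini-Hochberg adjustment. At an unadjusted p under 0.05, 5 of the 7 were lower, where 2.63% of all genes tested were lower at that threshold. None of the 9 genes passed at an adjusted p under 0.05, and neither did any other gene, so the share called was 0%, against 4.01% of genes (848) in either direction at an unadjusted p under 0.05. Among the other tools, DESeq2 called 28 genes lower and 1 higher after adjustment and edgeR's exact test 28 and 2, none of them among the 9, while edgeR's quasi-likelihood test and limma-voom called 0. Groups did not overlap, in the lower direction, for 5.30% of all genes tested.

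**Figure D1:**
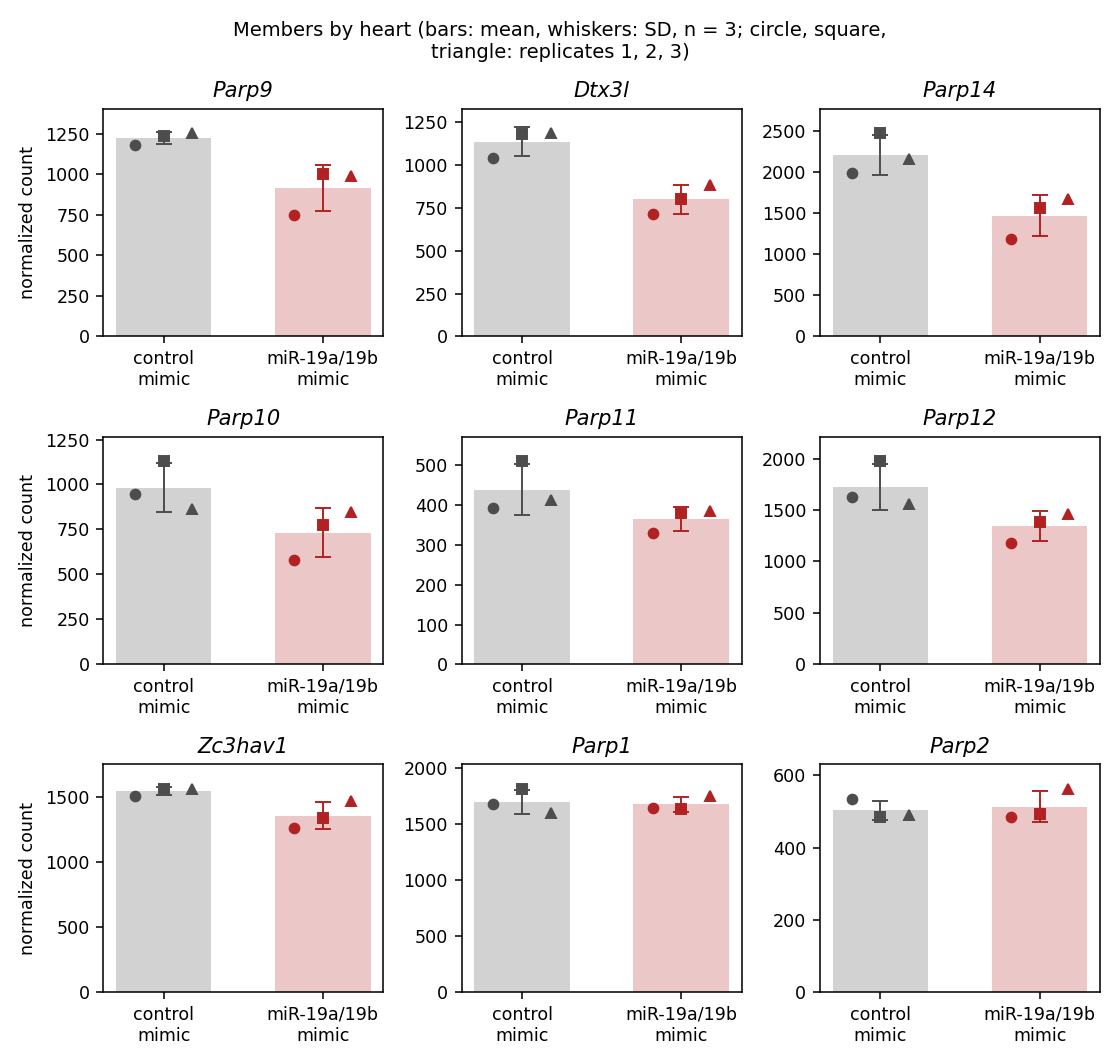
Normalized counts (vertical axes, from 0) of the 9 genes in each heart, with bars at the group mean, whiskers at the SD of 3 hearts, and circle, square and triangle for replicates 1, 2 and 3 of the control mimic (grey) and miR-19a/19b mimic (red) groups. In the 7 interferon-induced genes every miR-19a/19b mimic heart is below every control mimic heart, while the points of Parp1 and Parp2 overlap.

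Parp14, Dtx3l and Parp9 lie together on chromosome 16. Parp14 (ENSMUSG00000034422, chromosome 16, 35832874 to 35871544, - strand) encodes a large macrodomain enzyme known as a cofactor of Stat6 in interleukin-4 signaling. Its normalized counts were 1999, 2482 and 2168 in control mimic replicates 1, 2 and 3, against 1186, 1563 and 1670.1 in the miR-19a/19b mimic replicates 1, 2 and 3. Every miR-19a/19b mimic heart was low, and the highest of them was 83.5% of the lowest control. The mean went from 2216 ± 245 (SD, n = 3) to 1473 ± 254 (SD, n = 3). This was a log2 fold change of -0.60 (SE 0.15, 95% confidence interval -0.93 to -0.26), with limma's unadjusted p = 0.00292 and adjusted p = 0.877.

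Dtx3l (ENSMUSG00000049502, chromosome 16, 35926511 to 35939151, - strand) encodes an E3 ubiquitin ligase that forms a complex with Parp9. Its normalized counts were 1041, 1184 and 1188 in control mimic replicates 1, 2 and 3, against 712, 803 and 884 in the miR-19a/19b mimic replicates 1, 2 and 3. The groups did not overlap, with the highest miR-19a/19b mimic heart at 84.9% of the lowest control. The mean went from 1138 ± 83.7 (SD, n = 3) to 799.9 ± 86.1 (SD, n = 3). The log2 fold change was -0.51 (SE 0.11, 95% confidence interval -0.77 to -0.25), and limma gave it the smallest p of the 9 genes, unadjusted p = 0.00165 and adjusted p = 0.791, at rank 44 by p among all genes tested.

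Parp9 (ENSMUSG00000022906, chromosome 16, 35938470 to 35972605, + strand) encodes the macrodomain partner of Dtx3l. Its normalized counts were 1178, 1237 and 1254 in control mimic replicates 1, 2 and 3, against 749.9, 1000 and 991 in the miR-19a/19b mimic replicates 1, 2 and 3. The control hearts were close to each other, replicates 2 and 3 of the miR-19a/19b mimic group were nearly level, and replicate 1 was lower still. The mean went from 1223 ± 39.8 (SD, n = 3) to 914 ± 142 (SD, n = 3). Its log2 fold change was -0.43 (SE 0.13, 95% confidence interval -0.72 to -0.14), with limma's unadjusted p = 0.00823 and adjusted p = 1.

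Parp14, Dtx3l and Parp9 span 139732 bases from the start of Parp14 to the end of Parp9, on GRCm38. Between Parp14 and Dtx3l lie 54966 bases. Dtx3l and Parp9 lie head to head on opposite strands and overlap by 682 bases. The counting was not stated to use strand, so reads in that stretch cannot be assigned to either gene with certainty. Parp9 also overlaps the antisense gene Gm15564 over 5854 bases, and Gm15564 held between 4.3 and 13.4 normalized counts per heart. Parp14 overlaps Gm49730 on the same strand over 1773 bases, 110 of them in exons of Parp14. The genes that flank the locus were near their control means. Hspbap1 went from 138 ± 23.6 to 128 ± 9.07 (SD, n = 3 each), a log2 fold change of -0.10 (SE 0.16). Gm26838 was barely detected, at 3.06 ± 2.94 and 2.99 ± 1.17 normalized counts (SD, n = 3 each). On the other side, Kpna1, which encodes an importin, had a log2 fold change of -0.01 (SE 0.18), and Wdr5b had one of -0.07 (SE 0.19). The groups overlapped for all 4 of these neighbours. Whether the difference between locus genes and neighbours exceeds its error was not tested.

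Parp10 (ENSMUSG00000063268, chromosome 15, 76231174 to 76243441, - strand) encodes a mono-ADP-ribosyltransferase found as a partner of Myc. Its normalized counts were 947, 1131 and 865 in control mimic replicates 1, 2 and 3, against 579.9, 773 and 845 in the miR-19a/19b mimic replicates 1, 2 and 3. The groups were close at their edges, with the highest miR-19a/19b mimic heart at 97.7% of the lowest control. That gap was smaller than the 4.31% counting error at the lowest read count of Parp10. The mean went from 981 ± 136 (SD, n = 3) to 733 ± 137 (SD, n = 3), and the log2 fold change was -0.43 (SE 0.16, 95% confidence interval -0.79 to -0.07), with limma's unadjusted p = 0.0257 and adjusted p = 1. Without miR-19a/19b mimic replicate 1 the log2 fold change was -0.27 (limma's unadjusted p = 0.0912), and the unadjusted p was 0.0546 and 0.104 when control mimic replicate 1 or 2 was left out. Parp10 overlaps Plec on the same strand by 1401 bases, 205 of them in exons of Parp10.

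Parp11 (ENSMUSG00000037997, chromosome 6, 127446840 to 127494261, + strand) encodes a mono-ADP-ribosyltransferase of the nuclear envelope. It was the least abundant of the 9 genes, with normalized counts of 392, 511 and 414 in control mimic replicates 1, 2 and 3, against 331, 381 and 386 in the miR-19a/19b mimic replicates 1, 2 and 3. The highest miR-19a/19b mimic heart was at 98.3% of the lowest control, a gap smaller than the 5.7% counting error at its lowest read count. The mean went from 439 ± 63.4 (SD, n = 3) to 366 ± 30.2 (SD, n = 3). Its log2 fold change of -0.26 (SE 0.13) had a 95% confidence interval from -0.56 to 0.05 and an adjusted p of 1 (limma, unadjusted p = 0.0887).

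The zinc finger genes lie on chromosome 6, 731806 bases apart. Parp12 (ENSMUSG00000038507, 39086410 to 39118349, - strand) encodes an enzyme that binds RNA through CCCH zinc fingers and is known to restrict viral translation. Its normalized counts were 1631, 1977 and 1556 in control mimic replicates 1, 2 and 3, against 1178, 1380.5 and 1463 in the miR-19a/19b mimic replicates 1, 2 and 3. The highest miR-19a/19b mimic heart was at 94% of the lowest control. The mean went from 1722 ± 224 (SD, n = 3) to 1341 ± 147 (SD, n = 3). That is a log2 fold change of -0.36 (SE 0.13, 95% confidence interval -0.65 to -0.07), with limma's unadjusted p = 0.0214 and adjusted p = 1. It was -0.27 (unadjusted p = 0.0803) without miR-19a/19b mimic replicate 1 and -0.25 (unadjusted p = 0.0875) without control mimic replicate 2.

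Zc3hav1 (ENSMUSG00000029826, 38305286 to 38354603, - strand) encodes ZAP, also known as PARP13, which binds CpG-rich viral RNA and recruits RNA decay. Its normalized counts were 1512, 1562 and 1564 in control mimic replicates 1, 2 and 3, against 1266, 1343 and 1469 in the miR-19a/19b mimic replicates 1, 2 and 3. It had the smallest difference of the 7 genes, from 1546 ± 29.6 (SD, n = 3) to 1359 ± 102 (SD, n = 3). The highest miR-19a/19b mimic heart was at 97.1% of the lowest control, a gap about as large as the 2.91% counting error at its lowest read count. The log2 fold change of -0.19 (SE 0.10, 95% confidence interval -0.41 to 0.03) had an adjusted p of 1 (limma, unadjusted p = 0.0852). Transcripts of Dtx3l and Zc3hav1 hold short stretches at over 95% identity with transcripts of 31 and 22 other genes, up to 154 and 181 bases long, so reads from those stretches may be counted on either gene or on none.

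Parp1 (ENSMUSG00000026496, chromosome 1, 180568924 to 180601254, + strand) had normalized counts of 1674, 1813 and 1598 in control mimic replicates 1, 2 and 3, against 1639, 1638 and 1751 in the miR-19a/19b mimic replicates 1, 2 and 3. The groups overlapped, at 1695 ± 109 and 1676 ± 65.2 (SD, n = 3 each). The log2 fold change was -0.02 (SE 0.10), with a 95% confidence interval of -0.23 to 0.20 that includes 0. Parp2 (ENSMUSG00000036023, chromosome 14, 50807946 to 50821300, + strand) had normalized counts of 533, 483 and 491 in control mimic replicates 1, 2 and 3, against 484, 494 and 562 in the miR-19a/19b mimic replicates 1, 2 and 3. It averaged 502 ± 26.6 and 513 ± 42.4 (SD, n = 3 each), a log2 fold change of 0.03 (SE 0.11, 95% confidence interval -0.22 to 0.27). Limma gave both an adjusted p of 1, with unadjusted p of 0.88 for Parp1 and 0.794 for Parp2.

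The order of the miR-19a/19b mimic hearts recurred from gene to gene. Replicate 1 was the lowest of these hearts for 7 of 7 interferon-induced genes, and replicate 3 was the highest for all of them except Parp9. Relative to each gene's control mean, replicate 1 ranged from 53.5% (Parp14) to 81.9% (Zc3hav1), replicate 2 from 70.5% (Parp14) to 86.9% (Parp11 and Zc3hav1), and replicate 3 from 75.3% (Parp14) to 95% (Zc3hav1). Among control hearts the same percentages ran from 88.2% (Parp10, replicate 3) to 116% (Parp11, replicate 2). Averaged over the 7 genes, log2 values relative to the control mean were -0.09, 0.13 and -0.04 in control mimic replicates 1, 2 and 3, against -0.61, -0.33 and -0.25 in the miR-19a/19b mimic replicates 1, 2 and 3. For Parp1 and Parp2 the same averages were 0.04, 0.02 and -0.06, and -0.05, -0.04 and 0.11. Set against Parp1 within each heart, Parp14 gave log2 ratios, relative to the control mean, of -0.85, -0.45 and -0.45 in the miR-19a/19b mimic replicates 1, 2 and 3 and -0.13 to 0.07 in controls, while Zc3hav1 gave -0.24, -0.16 and -0.12, against -0.08 to 0.10 in controls. The difference between the interferon-induced and the repair genes was not tested.

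**Figure D2:**
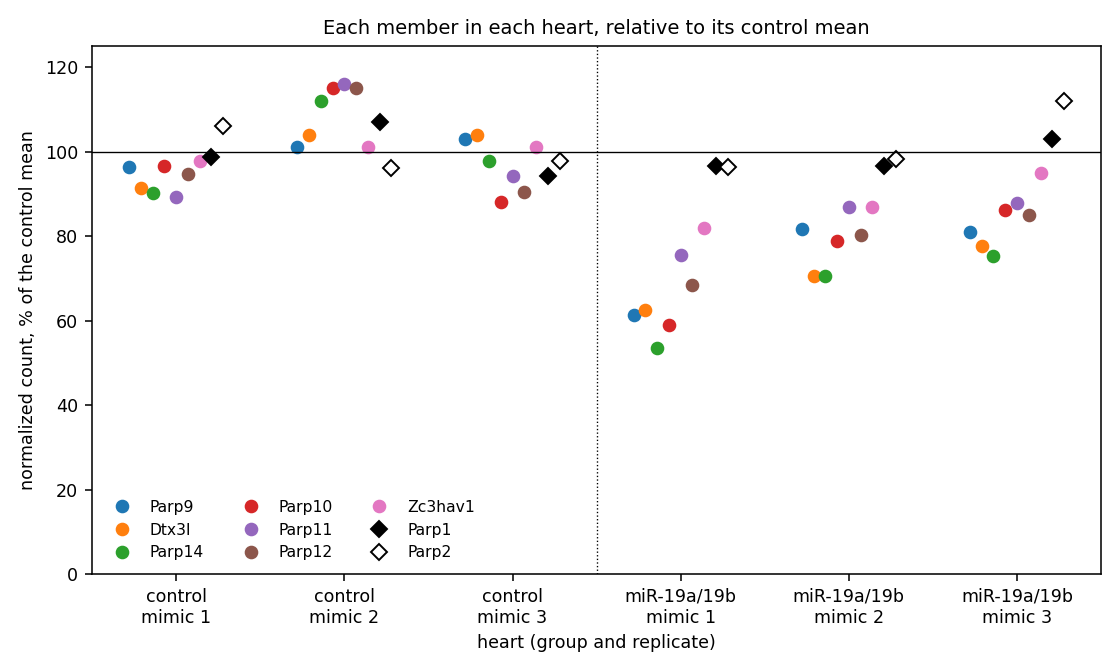
Each gene's normalized count in each heart as a percentage of its mean over the 3 control mimic hearts (vertical axis, from 0), for the 3 control mimic and 3 miR-19a/19b mimic hearts (horizontal axis); points within a heart are spread sideways for legibility. Circles are the 7 interferon-induced genes, between 53.5% and 95% in miR-19a/19b mimic hearts, and diamonds are Parp1 and Parp2, between 96.4% and 112%.

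The count of genes lower at an unadjusted p under 0.05 rested in part on single hearts. Without miR-19a/19b mimic replicate 1, the heart with the skeletal muscle signal, 3 of the 7 passed, where 2.44% of all genes were lower at that threshold, and the median log2 fold change over the 7 went from -0.43 to -0.27. The median of all 21126 genes tested, with all hearts, was 0.00. Without control mimic replicate 2, 3 of the 7 passed, where 1.75% of all genes did. Without miR-19a/19b mimic replicate 3, the heart low in cardiomyocyte RNA, 6 of the 7 passed, where 6.08% of all genes were lower at that threshold, and Dtx3l (limma's adjusted p = 0.021) and Parp14 (adjusted p = 0.0241) passed adjustment, where 0.774% of all genes did so in the lower direction. Over the 6 fits that left out 1 heart, the adjusted p ranged from 0.021 to 1 for Dtx3l and from 0.0241 to 1 for Parp14. Parp9, Dtx3l and Parp14 stayed below an unadjusted p of 0.05 in each of these 6 fits. When reads were scaled to CPM (a common total per library), groups of 3 genes, Parp9, Dtx3l and Parp14, did not overlap in the lower direction, beside 5.49% of all genes, and the groups of the other 4 overlapped.

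Compared per kilobase of the gene length listed in the deposited table, the levels in control hearts were in the order Parp12 (431 ± 56.2 normalized counts per kilobase, SD, n = 3), Parp1 (320.2 ± 20.7), Parp2 (281 ± 14.9), Parp9 (251 ± 8.16), Parp14 (238 ± 26.3), Zc3hav1 (237 ± 4.54), Parp10 (229.5 ± 31.9), Dtx3l (199 ± 14.6) and Parp11 (62.5 ± 9.03). The control ranges of neighbours did not overlap from Parp12 down to Parp9, nor between Dtx3l and Parp11. From Parp9 to Dtx3l each overlapped the next. The place of Parp2 depended on the length used, since its listed length was below the 3628 bases of its annotated exons, with which it came to 138 normalized counts per kilobase. In miR-19a/19b mimic hearts Parp12 (336 ± 36.7) was still the highest and Parp11 (52.1 ± 4.29) the lowest, and Parp14 (158 ± 27.3) stood below Zc3hav1 (209 ± 15.7), Parp9 (188 ± 29.1) and Parp10 (171 ± 32.1) in mean, though its range overlapped those of Parp9 and Parp10.

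In the rest of the PARP family, of 8 other enzymes, 0 were lower and 0 higher at an unadjusted p under 0.05, and their median log2 fold change was -0.04. Without miR-19a/19b mimic replicate 1, 1 was lower (Tnks), where 2.44% of all genes were lower at that threshold. Without miR-19a/19b mimic replicate 3, 1 was higher (Parp16), where 8.39% of all genes were higher. Tiparp, a mono-ADP-ribosyltransferase induced by the aryl hydrocarbon receptor, averaged 505 ± 86.4 and 474 ± 72.7 normalized counts (SD, n = 3 each). Parp16, an enzyme of the endoplasmic reticulum, was the one whose groups did not overlap, at 229 ± 12.5 and 271 ± 26.8 (SD, n = 3 each), a log2 fold change of 0.24 (SE 0.13). Groups did not overlap in that higher direction for 824 of the 21126 genes tested. Tnks, a tankyrase, had a log2 fold change of -0.20 (SE 0.13) and the vault enzyme Parp4 had one of -0.08 (SE 0.12), both with overlapping groups.

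**Figure D3:**
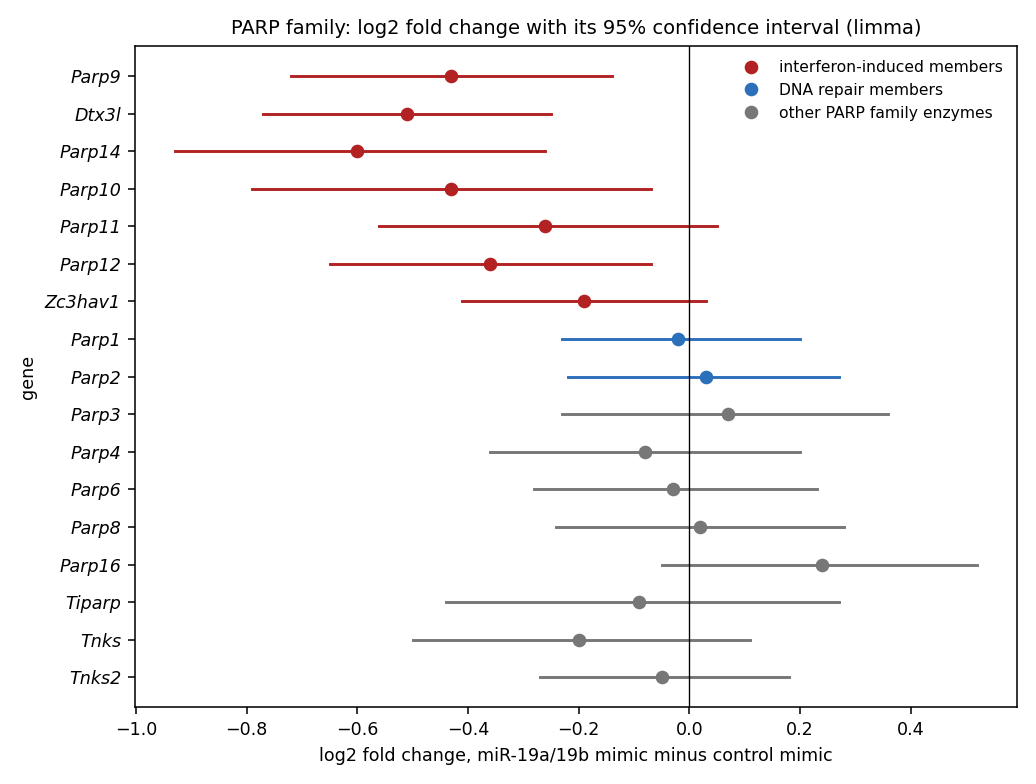
Log2 fold change (horizontal axis, miR-19a/19b mimic minus control mimic, from limma, points) with its 95% confidence interval (lines) for the 9 genes and 8 other PARP family enzymes (vertical axis). The intervals of Parp9, Dtx3l, Parp14, Parp10 and Parp12 are below 0, and those of Parp11, Zc3hav1, Parp1, Parp2 and the 8 others include 0.

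Genes around the enzymes were read in the same way. Of 7 tested genes that remove or read ADP-ribose, 0 passed an unadjusted p under 0.05 in either direction, with a median log2 fold change of 0.05. Among them, the hydrolases Macrod2 (0.34, SE 0.21) and Oard1 (0.12, SE 0.12) had the smallest p, followed by Adprh (-0.08, SE 0.10) and Macrod1 (0.27, SE 0.38). Macrod1 was lowest in the heart low in cardiomyocyte RNA, at 1032 normalized counts in miR-19a/19b mimic replicate 3 against 3131 and 3159 in replicates 1 and 2. Without that heart 2 of the 7, Macrod1 and Adprhl1, were higher and passed adjustment, where 1.81% of all genes did so in that direction. Of 10 genes of NAD supply, 2 were higher and 0 lower at an unadjusted p under 0.05, where 1.39% of all genes tested were higher, and none passed adjustment. Neither passed without miR-19a/19b mimic replicate 1, nor without miR-19a/19b mimic replicate 2 or control mimic replicate 3. Without miR-19a/19b mimic replicate 3, 4 were higher and 2 lower, where 8.39% and 6.08% of all genes were. In that fit 1 of the 10, Nampt, was higher and passed adjustment, where 1.81% of all genes did so in that direction. Naprt, which makes NAD from nicotinic acid, went from 457 ± 12.1 to 559 ± 28 (SD, n = 3 each), a log2 fold change of 0.29 (SE 0.10, limma's unadjusted p = 0.017, adjusted p = 1). Nmnat2, which completes NAD synthesis, went from 42.4 ± 9.83 to 63.8 ± 4.38 (SD, n = 3 each), a log2 fold change of 0.60 (SE 0.22, limma's unadjusted p = 0.0245, adjusted p = 1). With all hearts Nampt, the main salvage enzyme, had a log2 fold change of 0.23 (SE 0.18), and Nadk had one of -0.10 (SE 0.11). Of 9 tested partners of Parp1 in single-strand break repair, 0 passed, with a median of 0.04. Lig3 (-0.16, SE 0.11) and Xrcc1 (0.14, SE 0.11), which seal and scaffold the repaired break, had the smallest p, then Aptx (0.11, SE 0.14) and Fen1 (0.44, SE 0.81), the last at a mean of 3.19 and 3.75 normalized counts.

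Several of the factors through which interferon acts were also lower. Of 15 tested ligands, receptors, kinases and factors, 4 were lower and 0 higher at an unadjusted p under 0.05, where 2.63% of all genes tested were lower, with a median log2 fold change of -0.15 and none past adjustment. The count was 3 of 16 tested without miR-19a/19b mimic replicate 1, where 2.44% of all genes were lower. It was 8 of 16 without replicate 3, where 6.08% of all genes were lower. Stat2 passed adjustment without replicate 3, where 0.774% of all genes did so in the lower direction. The filter on low values was applied anew in each fit. Irf7, which amplifies type I interferon, held 4886, 6030.2 and 4175 normalized counts in control mimic replicates 1, 2 and 3, against 2764, 3626 and 2674 in the miR-19a/19b mimic replicates 1, 2 and 3. Its groups did not overlap, with a log2 fold change of -0.73 (SE 0.17, limma's unadjusted p = 0.00189, adjusted p = 0.806). Stat2 and Irf9, which act together at interferon-stimulated genes, had the same direction. Stat2 held 1850, 2204 and 2028 normalized counts in control mimic replicates 1, 2 and 3, against 1102, 1438 and 1523 in the miR-19a/19b mimic replicates, a log2 fold change of -0.59 (SE 0.14, limma's unadjusted p = 0.0022, adjusted p = 0.815). Irf9 held 1449, 1675 and 1578 against 1089, 1342 and 1306, a log2 fold change of -0.33 (SE 0.12, unadjusted p = 0.0178, adjusted p = 1 in limma). For Irf7, Stat2 and Irf9 no miR-19a/19b mimic heart reached a control heart, as for 5.30% of all genes tested. Irf1, a factor also induced by interferon gamma, averaged 778 ± 67.9 and 719 ± 130 (SD, n = 3 each), with overlapping groups. Of 4 cofactors and targets of Zc3hav1, 0 passed and their median log2 fold change was -0.16, while without miR-19a/19b mimic replicate 3, 3 of the 4 were lower at an unadjusted p under 0.05. Trim25, the ubiquitin ligase that ZAP needs, went from 3111 ± 184 to 2697 ± 248 (SD, n = 3 each), a log2 fold change of -0.21 (SE 0.11), and Khnyn, the nuclease partner, averaged 917 ± 40.8 and 885 ± 92.7 (SD, n = 3 each). N4bp1, a relative of Khnyn (-0.13, SE 0.12), and Tnfrsf10b (-0.19, SE 0.16) also had overlapping groups.

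**Figure D4:**
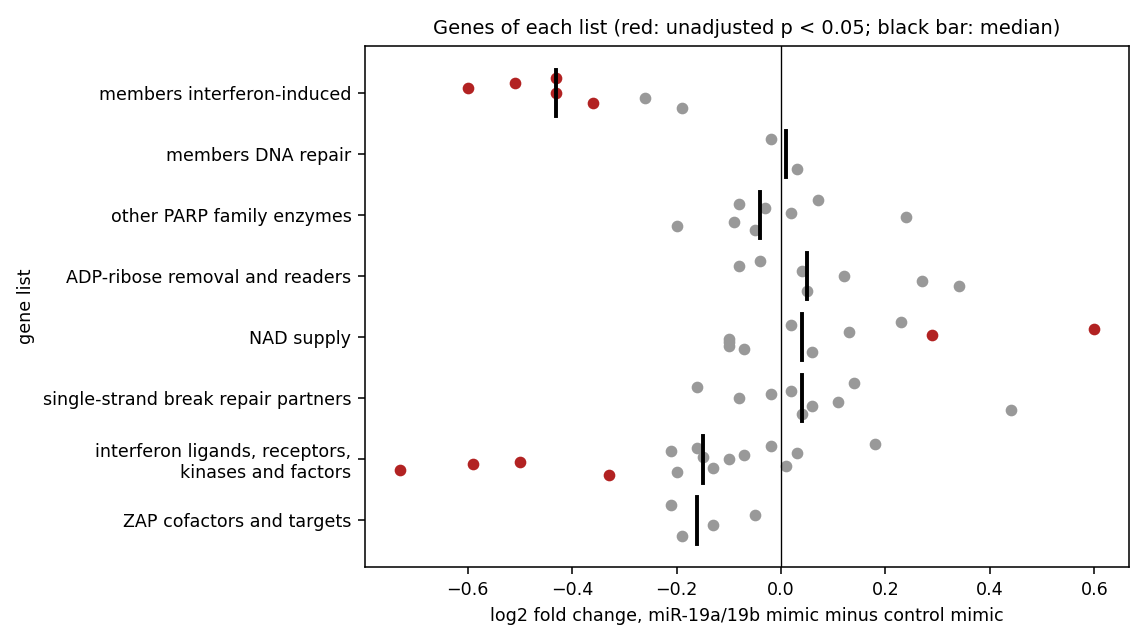
Log2 fold change (miR-19a/19b mimic minus control mimic, from limma) of every tested gene in each list, 1 point per gene, red where the unadjusted p was under 0.05, with a bar at the median of the list. The 7 interferon-induced genes lie between -0.60 and -0.19 with a median of -0.43, beside medians of -0.15 for interferon ligands, receptors, kinases and factors and -0.04 for the other PARP family enzymes.

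Some leukocyte markers were also lower. Of 12 tested macrophage and monocyte markers, 3 were lower at an unadjusted p under 0.05, where 2.63% of all genes tested were, and these mark inflammatory monocytes. Ly6c2 went from 677 ± 187 to 198 ± 62.6 (log2 fold change -1.77, SE 0.26), Plac8 from 1595 ± 281 to 848 ± 170 (-0.92, SE 0.18) and Ccr2 from 2419 ± 301 to 1674 ± 237 (-0.53, SE 0.14; SD, n = 3 each). The sum of the list overlapped between groups, at 91954 to 107979 in controls and 74411 to 112680 in miR-19a/19b mimic hearts. The 8 T cell markers were all below their control means, 3 of them at an unadjusted p under 0.05 (Lck, Trac and Cd8a), and summed to 260 to 367 in controls and 198 to 224 in miR-19a/19b mimic hearts. Of 6 neutrophil markers 1 was lower (Retnlg), with sums of 1697 to 2035 and 838 to 2581. Of 4 B cell markers (sums of 133 to 160.3 and 113 to 227), 6 endothelial markers (21440.0 to 27787 and 24063 to 25144), 6 fibroblast markers (488162 to 605258 and 403016 to 685639) and 8 cardiomyocyte markers (482786 to 629133 and 296170.2 to 868929), 0 passed. Of 6 skeletal muscle markers, 1 was higher (Actn3), with sums of 28.3 to 42 and 38.1 to 2282, and Myh2 was at 0 in the 5 hearts other than miR-19a/19b mimic replicate 1. Without miR-19a/19b mimic replicate 3, where 6.08% of all genes were lower and 8.39% higher at an unadjusted p under 0.05, 7 of the 12 macrophage and monocyte markers and 5 of the 6 neutrophil markers were lower and 7 of the 8 cardiomyocyte markers were higher. Without replicate 1 these counts were 3 (of 13 entries tested), 0 and 0. Without miR-19a/19b mimic replicate 3, Ly6c2, Ccr2, Plac8 and Csf3r passed adjustment as lower, where 0.774% of all genes did. Myl2, Pln and Tnni3 passed it as higher in that fit, where 1.81% of all genes did. Of the T cell markers 2 were lower without replicate 1, 3 without replicate 3 and 0 without control mimic replicate 2. The part of these cell types in the lower values of the 7 genes was not tested.

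Promoter sequences of 300 bases, 250 before the start and 50 from it, were found in RefSeq (GRCm38.p6) for 6 of the 9 genes, in 7 windows, the others being Parp9, Parp10 and Parp14. They were searched on both strands for the core of the interferon-stimulated response element (ISRE), GAAANNGAAA, and for the gamma-activated site (GAS), TTCNNNGAA, sequences through which interferons are known to act. The ISRE core was present in 3.44% of 32851 promoter windows and the GAS in 8.3%. Of the 7 windows, 1 window of Parp11 held both, and the windows of Parp1, Parp2, Parp12, Zc3hav1 and Dtx3l and the other window of Parp11 held neither. The Parp11 window, chr6:127446590-127446889 (+ strand), is shown for this reason, with the stretch that holds both motifs in capitals.
Parp11: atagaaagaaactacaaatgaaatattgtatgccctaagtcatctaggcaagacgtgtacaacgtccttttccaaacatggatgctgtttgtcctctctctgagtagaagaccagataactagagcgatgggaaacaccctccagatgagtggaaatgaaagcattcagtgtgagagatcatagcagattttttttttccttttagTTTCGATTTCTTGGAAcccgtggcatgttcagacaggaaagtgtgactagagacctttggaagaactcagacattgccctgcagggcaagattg
The ISRE core is the TTTCGATTTC that starts at -44 from the transcription start, read on the other strand, and the GAS is the TTCTTGGAA that starts at -37, so they share 3 bases. A match of letters is a description of the sequence and not of binding.

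Across the 6 hearts, the 7 genes varied closely with one another. As a description, over 6 hearts that fall into the study's groups, the Pearson correlation of each gene with the mean of the other interferon-induced genes ranged from 0.904 (Parp11) to 0.997 (Parp14), against 0.461 for Parp1 and 0.021 for Parp2. Among 11514 genes outside the lists with a mean of at least 100 normalized counts, the patterns most like the mean of the 7 genes included those of Pyhin1 (r = 0.996 over 6 hearts), Ddx58 (0.995), Oas1a (0.993) and H2-T23 (0.992). Pyhin1 went from 888 ± 142 to 546 ± 142 normalized counts (SD, n = 3 each), a log2 fold change of -0.72 (SE 0.20). The log2 fold changes of Oas1a (-0.69, SE 0.17), Ddx58 (-0.54, SE 0.14) and H2-T23 (-0.51, SE 0.13) were smaller in size. In each of these 4 genes, as in the 7, miR-19a/19b mimic replicate 1 was the lowest heart. These genes were picked for their likeness to the 7 over these same hearts. Their lower values and shared lowest heart follow from that choice and are no separate evidence.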

How the data were processed

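RNA-seq was done on ventricular tissue of 6 mouse hearts, 3 per group, and groups were taken from the sample labels. Replicates were separate hearts. Per the study's methods and the submitters' processing notes, reads were aligned with STAR (2.5.1b) and counted with HTSeq (0.6.0). The notes also list DESeq2 (1.10.1) and the build mm9, but 82.7% of the 25884 gene identifiers found in GENCODE M21 had the same start and end as on GRCm38, so coordinates are given on GRCm38. Strand use in counting was not stated.

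The signal that the authors deposited is a normalized count, each gene's reads divided by a size factor. Whole reads (within 0.01) were recovered for 100% of values in each library. Columns with the authors' own deposited log2 fold changes and p-values, and their selection of genes from them, were not used. The study's methods name edgeR. Here limma was the main test because the deposited values are not raw counts, and edgeR was run on the recovered reads as an alternative.

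Groups were compared with limma 3.58.1 (R 4.3.3) on log2(normalized count + 1), with the prior variance trended, two-sided, over the 21126 genes with a mean of at least 1, with Benjamini-Hochberg adjustment. A fold change on this scale understates that of low genes. The script was tested on simulated data. An exact permutation test of 3 against 3 hearts cannot go below p = 0.1. Reads on genes numbered 19398196 to 23645308 per heart. Counting error at the lowest read count of each of the 9 genes was 2.57% to 5.7%.

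Alternatives were DESeq2 1.42.0, edgeR 4.0.16 (quasi-likelihood and exact tests), limma-voom, CPM, TMM scaling, a pseudocount of 0.1, no filter, at least 10 reads in every heart, the replicate number as a block, and each heart left out in turn. Shared stretches of at least 95% identity over 100 bases were found with BLAST.

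The 9 genes and the other lists were chosen with earlier results of these data known. From each other list at most 4 genes are named, those with the smallest limma p, plus Stat2, Irf9, Irf1, Irf7, Tiparp, Trim25 and Khnyn, and also the nearest 2 tested genes on each side of the chromosome 16 locus and the genes most like the mean of the 7. Some items that this rule covers are not reported here. Gm15564, Gm49730 and Plec are named for their overlaps, and Adprhl1 was named after its values were seen. The counts of the other lists without single hearts were added after seeing the data.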

Additional observations from a re-analysis of the deposited data

How the results depend on the processing

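All 112 log2 fold changes of the 7 interferon-induced genes, over 16 alternatives, were below 0. Over the 10 alternatives with all hearts, Parp14 ranged from -0.62 to -0.59, Dtx3l from -0.54 to -0.51 and Zc3hav1 from -0.21 to -0.19, and 0 genes of the 9 passed adjustment. Dtx3l came nearest, with an adjusted p of 0.117 by DESeq2 (range 0.117 to 1). DESeq2 called 28 genes lower and 1 higher, edgeR's exact test 28 and 2, and edgeR's quasi-likelihood test and limma-voom 0. With CPM, 3 of the 7 did not overlap instead of 7. Leaving out 1 heart each gave 3 to 6 genes lower at an unadjusted p under 0.05, 0 to 2 at an adjusted p under 0.05, and a median from -0.50 to -0.27. Parp1 ranged from -0.06 to 0.03 (0.03 without control mimic replicate 2, 0.00 without miR-19a/19b mimic replicate 1 or 2) and Parp2 from -0.04 (without miR-19a/19b mimic replicate 3) to 0.07, crossing 0. The causes were not tested.

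Deviations of same-numbered hearts from their group means correlated at 0.01, -0.28 and -0.41 over 12738 genes. No heart correlated best with its own number. Deviations centred within groups of 3 hearts cannot decide whether the replicate numbers paired the hearts. With the replicate number as a block, 5 of the 7 were still lower at an unadjusted p under 0.05 and 0 passed adjustment, with a median of -0.43, and 434 genes were lower and 207 higher in place of 555 and 293.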
